A study of Mus musculus with 15 samples.

Results

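The 10 ETS transcription factor genes Erg, Fli1, Ets1, Ets2, Etv1, Etv4, Etv5, Etv6, Elf1 and Gabpa were described by the methylation of their CpG sites in mouse dentate gyrus. A CpG site is a cytosine followed by guanine, counted here once for each strand. Every CpG site inside a member gene or within 5 kb of it was taken, whether or not all mice had a value there, which gave 437 of the 455836 CpG sites measured in the genome. The family was chosen by the percent methylation of a 1 kb window inside Erg, which was lower in standard housing than in both groups that had been enriched. The levels in that window against standard housing are therefore given as a description with no test. The other sites of Erg against standard housing are also described without their p-values. Limma p-values were still used to name some of these sites, and enter the counts that are marked below as including Erg.

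The assay was reduced representation bisulfite sequencing (RRBS), which reads short, CpG-rich restriction fragments after a treatment that converts unmethylated cytosines. The tissue was the micro-dissected dentate gyrus, a hippocampal region built largely of granule neurons, from 15 female C57BL/6JRj mice aged 7.5 months. A group of 5 mice lived in standard cages for 6 months (standard). A second group of 5 mice lived in an enriched environment for 6 months (enriched), and the remaining 5 had 3 months of enrichment and then 3 months of standard housing (withdrawal). All mice were of the same strain, sex and age. The question put to the member genes was whether 6 months of enrichment altered their methylation and whether any difference was still present 3 months after enrichment had ended.

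ETS proteins share a DNA-binding domain that recognises a short GGAA core, and the family holds both activators and repressors. Erg and Fli1 are close relatives best known from endothelial and blood cells, where Erg helps to keep endothelial identity. Etv1, Etv4 and Etv5 form the PEA3 group, which acts downstream of fibroblast growth factor signals in the nervous system, and Gabpa is the DNA-binding subunit of a factor that drives mitochondrial and housekeeping genes. CpG-rich gene starts are usually unmethylated, whereas CpG sites inside genes are usually methylated.

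The member genes lie on 6 chromosomes of the GRCm38.p6 assembly. Erg (chr16:95359169-95586600) and Ets2 (chr16:95702407-95721049) are neighbours separated by 115.8 kb, and Fli1 (chr9:32422204-32543432) and Ets1 (chr9:32636241-32757820) are neighbours separated by 92.8 kb. Etv5 (chr16:22381313-22439570) and Gabpa (chr16:84834891-84863783) are also on chromosome 16. Etv1 is at chr12:38780082-38870483, Etv4 at chr11:101769747-101785310, Etv6 at chr6:134035700-134270158 and Elf1 at chr14:79481174-79582491. Only the outer limits of the genes and the starts of some transcripts were used, so exons, introns and untranslated regions were not told apart.

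RefSeq promoter sequences (250 bases before to 50 bases after a transcript start, GRCm38.p6) matched 7 of the 10 genes, with 12 promoters. The following 3 are printed because they show where the measured sites lie. The internal Erg start (chr16:95459299-95459598, minus strand) is the annotated transcript start nearest to the Erg window, and the Etv1 (chr12:38779832-38780131, plus strand) and Gabpa (chr16:84834874-84835173, plus strand) promoters hold measured sites. Each is written 5′ to 3′ in lower case, with the CpG sites that had methylation values in capitals.
Erg internal start: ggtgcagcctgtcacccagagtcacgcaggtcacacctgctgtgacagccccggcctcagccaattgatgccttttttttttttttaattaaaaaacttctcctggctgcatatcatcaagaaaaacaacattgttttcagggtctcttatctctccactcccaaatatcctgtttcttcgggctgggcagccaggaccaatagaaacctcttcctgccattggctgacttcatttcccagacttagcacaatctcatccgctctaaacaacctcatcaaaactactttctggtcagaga
Etv1 start: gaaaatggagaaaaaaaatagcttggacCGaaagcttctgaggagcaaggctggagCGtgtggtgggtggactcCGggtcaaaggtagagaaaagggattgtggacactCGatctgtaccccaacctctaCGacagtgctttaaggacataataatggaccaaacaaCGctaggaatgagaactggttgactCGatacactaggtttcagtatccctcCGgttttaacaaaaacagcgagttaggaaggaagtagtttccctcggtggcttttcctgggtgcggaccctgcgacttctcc
Gabpa start: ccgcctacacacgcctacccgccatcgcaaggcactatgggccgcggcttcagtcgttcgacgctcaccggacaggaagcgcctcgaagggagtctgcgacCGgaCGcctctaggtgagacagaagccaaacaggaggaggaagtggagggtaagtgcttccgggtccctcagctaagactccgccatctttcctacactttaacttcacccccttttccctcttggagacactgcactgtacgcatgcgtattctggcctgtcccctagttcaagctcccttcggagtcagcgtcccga
The internal Erg promoter holds 4 CpGs, none of them measured. Its transcript starts at position 95459348, and the sites of the Erg window lie 895 to 969 bases downstream of that start. The Etv1 promoter has 8 of its 12 CpGs measured, in 9 strand-specific sites with a mean methylation of 1.73%. The Gabpa promoter has 2 of 22 CpGs measured, at a mean of 4.31%. The Etv6 promoter, not printed, has 1 of 17 CpGs measured, at 0%. The motif CCGGAA, searched on both strands and containing the GGAA core, occurs once in the Gabpa promoter and in none of the other 11 member promoters, against 14.9% of all 32851 RefSeq promoters. The core GGAA alone is in 96.0% of all promoters, so its presence does not set any member apart. It is absent only from the Etv5 promoter at chr16:22439521-22439820 among the member promoters.

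Erg, whose protein is a transcription factor of the vascular lineage, had 52 measured CpG sites. The Erg window (chr16:95458001-95459000) holds 5 of them, all on the minus strand, between positions 95458379 and 95458453. These 5 sites span 74 bases and may lie on the same sequenced fragments, so they are not independent measurements. A value in all 15 mice was available at 3 of the 5 sites, and the window level of a mouse is the mean of those 3.

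Window methylation in the standard mice was 91.7% in standard 1, 60.9% in standard 2, 68.5% in standard 3, 80.4% in standard 4 and 55.9% in standard 5, a mean of 71.5% ± 14.6 (SD, n = 5). In the enriched mice it was 100%, 96.5%, 100%, 100% and 97.1% in mice 1 to 5, a mean of 98.7% ± 1.77 (SD, n = 5). In the withdrawal mice it was 100%, 86.7%, 97.8%, 95.4% and 100% in mice 1 to 5, a mean of 96.0% ± 5.54 (SD, n = 5). All 5 standard mice lay below all 5 enriched mice. Standard and withdrawal overlapped through a single pair, since standard 1 stood above withdrawal 2. The difference of the means was 27.2 points for enriched against standard and 24.5 points for withdrawal against standard. Over all processing alternatives these differences ran from 23.3 to 32.3 points and from 20.6 to 29.5 points.

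**Figure D1:**
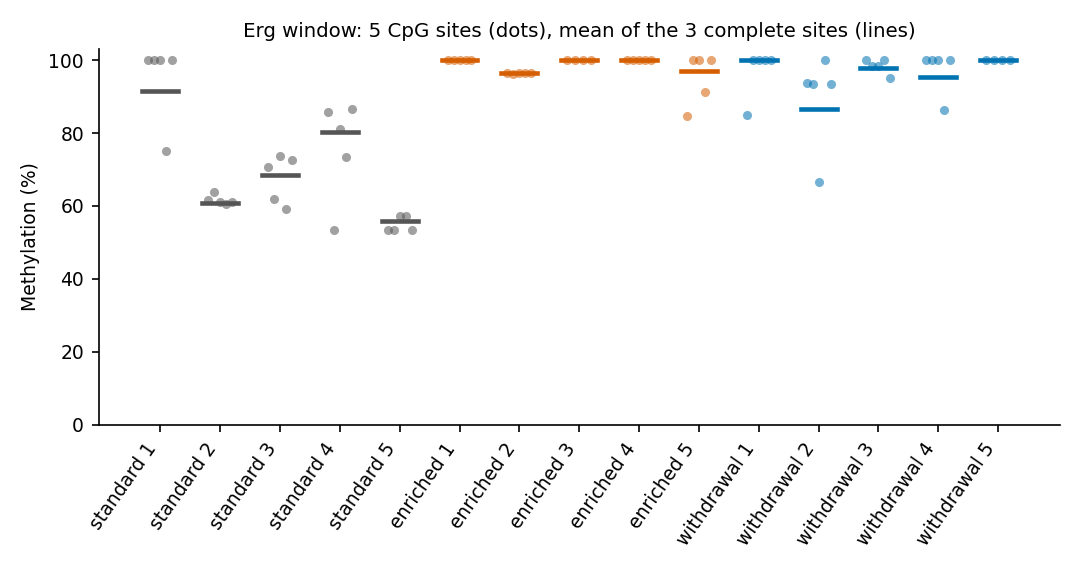
Methylation (%) of the Erg window in each of the 15 mice; dots are the 5 CpG sites and lines the mean of the 3 sites measured in every mouse. The lines run from 55.9% to 91.7% for standard, from 96.5% to 100% for enriched and from 86.7% to 100% for withdrawal mice.

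The 5 sites were close to each other in some standard mice and not in others. In standard 5 the Erg sites ran from 53.3% to 57.1% and in standard 2 from 60.6% to 63.9%, whereas in standard 3 they ran from 59.3% to 73.6% and in standard 4 from 53.3% to 86.7%. Standard 4, the second highest standard mouse in the window mean, shared the lowest value with standard 5 at position 95458408. Standard 1 stood at 100% at 4 of its 5 sites and at 75.0% at the site at position 95458438. At that site the standard mice had 75.0%, 60.6%, 59.3%, 73.3% and 57.1%, the enriched mice 100%, 96.4%, 100%, 100% and 91.3%, and the withdrawal mice 100%, 100%, 100%, 86.2% and 100%. It was the site of the 5 at which the standard mice were most alike, at 65.1% ± 8.42 (SD, n = 5). At the other 4 sites the standard means were 74.3% ± 18.7 (position 95458379), 66.5% ± 19.3 (95458408), 74.6% ± 17.1 (95458427) and 74.8% ± 18.9 (95458453), each SD over n = 5. The enriched means at those 4 sites were between 96.2% and 99.3%, and the withdrawal means between 93.0% and 98.3%.

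Withdrawal against enriched was the Erg comparison that the choice of genes did not make directly. The values of both groups still entered the choice, since both had to lie above standard, which favours a small difference between them. Withdrawal mice were 2.74 points below enriched mice, a difference within the spread between mice (two-sided exact permutation test over 252 arrangements of 5 against 5 mice, p = 0.405). Over the alternatives p ran from 0.254 to 0.810, and without withdrawal 2, the lowest mouse of its group, the difference dropped by more than 1.5 times, to -0.41 points. The p-value does not show that both groups were alike, and both are close to the upper limit of 100%. Cytosines outside CpG in the same 1 kb (10 positions) had means between 0% and 6.00% in all mice.

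Erg was measured at 19 clusters of sites, of which the Erg window is 1, a cluster being sites with no more than 150 bases between neighbours. The cluster nearest its 5′ end (8 sites, 451 to 612 bases from that end) had a mean of 1.82%, and the remaining 44 sites a mean of 67.2%. The next site on the lower side of the window is 6446 bases away and the next on the upper side 20136 bases away, so the extent of the difference between them was not measured. In the cluster on the lower side (3 sites, positions 95451788 to 95451933), as the mean over the sites each mouse had, methylation was 45.0%, 88.1%, 91.7%, 54.9% and 47.4% in standard mice 1 to 5. It was 96.1%, 100%, 100%, 86.1% and 88.9% in enriched mice and 100%, 63.0%, 68.8%, 85.2% and 83.6% in withdrawal mice. These means rest on different sites in different mice, since 4 mice, standard 5 among them, had a value only at position 95451788. At that Erg site, measured in all mice, standard mice 1 to 5 had 50%, 64.3%, 75.0%, 64.7% and 47.4%. Standard 1, the highest standard mouse in the window, was thus the second lowest of the standard mice at this site, and standard 3 the highest. In the cluster on the upper side (3 sites, positions 95478589 to 95478645) 3 standard mice had 100%, 61.9% and 100%, 3 enriched mice were all at 100%, and 4 withdrawal mice ran from 88.9% to 100%.

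**Figure D2:**
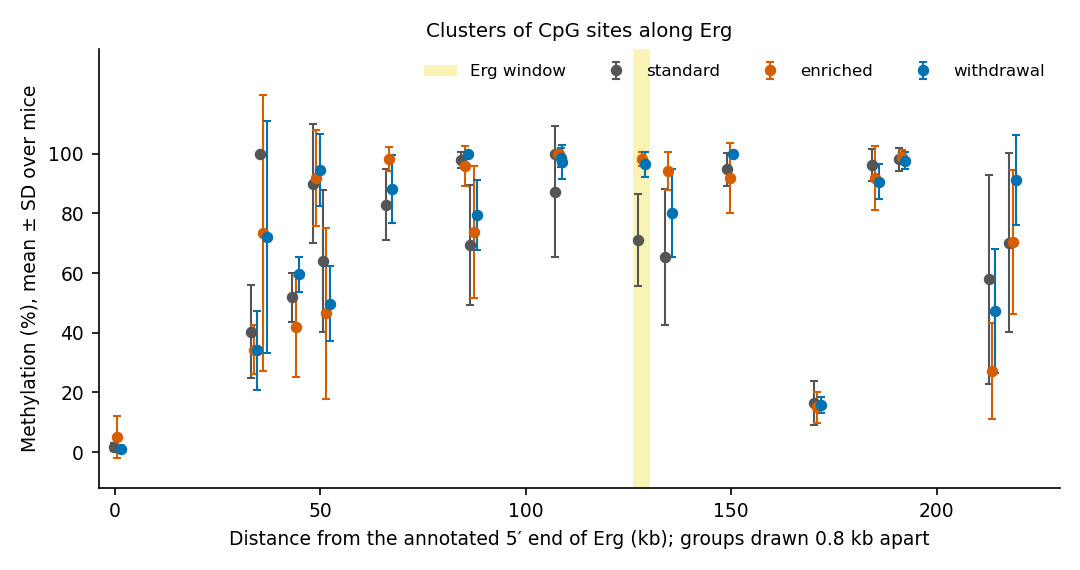
Group mean methylation (%) ± SD over mice of each cluster of CpG sites in Erg, by distance (kb) from the annotated 5′ end; a mouse enters with the sites it had, and bars can pass 100% because they are symmetric. The cluster at the 5′ end had a mean of 1.82%, and in the marked Erg window the standard mean lies below the enriched and withdrawal means.

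A second Erg window about 43 kb away (chr16:95415001-95416000, 6 sites measured in all mice) was of low methylation in every group. Its mean was 18.7% ± 8.80 for standard, 13.6% ± 4.94 for enriched and 15.6% ± 5.39 for withdrawal mice (SD, n = 5 each). Within it, the Erg site at position 95415639 stood at 66.7%, 18.5%, 31.0%, 39.0% and 78.8% in standard mice and at 32.0%, 27.6%, 11.6%, 0% and 0% in enriched mice, the opposite order to that in the Erg window. The site at 95415469 had a mean of 25.5% ± 16.9 in standard and 5.46% ± 7.07 in withdrawal mice (SD, n = 5), a difference that went from -20.0 to -12.9 points without standard 5. At 95415574, the plus-strand cytosine of another CpG, the values were 0%, 6.90%, 0%, 0% and 0% in enriched mice and 28.1%, 39.4%, 21.1%, 12.7% and 0% in withdrawal mice. That difference of 18.9 points had an unadjusted limma p of 0.0143 and an adjusted p of 0.922 over all 350663 sites tested. The opposite strand of the same CpG, at 95415575, had 24.2% ± 3.22 in enriched and 18.6% ± 10.2 in withdrawal mice, the reverse order. At the named site of Erg outside these windows, position 95519931, standard mice had 73.7%, 69.8%, 87.5%, 100% and 83.5%, and enriched mice 100% in 4 mice and 91.1% in enriched 4. Withdrawal mice at this Erg site had 92.1%, 96.1%, 69.5%, 97.3% and 85.5%, which overlapped both groups.

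Another Erg window (chr16:95552001-95553000, 4 sites) had intermediate methylation, at 40.3% ± 15.7 for standard, 34.4% ± 8.24 for enriched and 34.1% ± 13.3 for withdrawal mice (SD, n = 5 each). Averaged over the 18 Erg sites measured in every mouse, the mean was 48.3% ± 3.91 for standard, 52.4% ± 3.04 for enriched and 51.5% ± 3.41 for withdrawal mice. Without the 3 sites of the Erg window the 3 means were 43.6% ± 5.46, 43.1% ± 3.32 and 42.6% ± 4.88 (15 sites, SD, n = 5 each), and the groups overlapped. Leaving out the window turned the sign of the difference over Erg for enriched against standard, from 4.13 to -0.49 points, and for withdrawal against standard, from 3.22 to -1.03 points.

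At gene starts the 10 ETS genes were nearly unmethylated, and in the rest of their regions they differed from each other. Sites within 1 kb of the gene start numbered 163. This count uses both gene ends for Fli1, Ets1 and Etv4, whose strand was not in the gene tables used here. Of these, 162 had a mean under 20% over the mice, and their mean was 1.84%. Of the other 274 sites 132 were under 20%, 42 lay between 20% and 80%, and 100 were over 80%, with a mean of 44.6%. Over all 437 sites 67.3% were under 20% and 22.9% over 80%, against 52.4% and 30.4% of all CpG sites in the genome. The outermost included site, in Elf1 and 4975 bases from the gene, had a mean of 0.318%, and the nearest one not included, 5003 bases from Elf1, was at 0%.

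**Figure D3:**
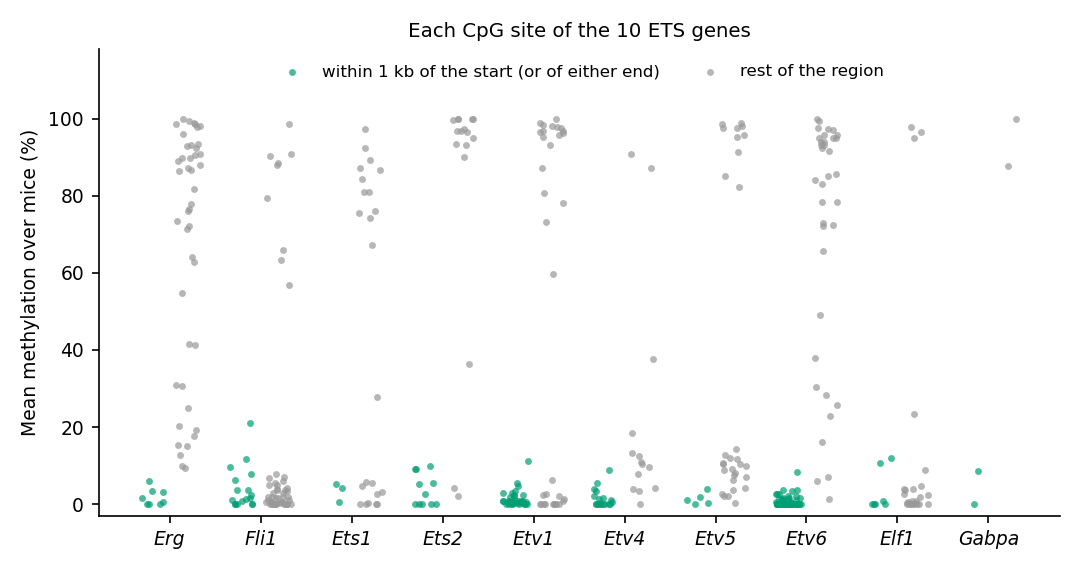
Mean methylation (%) over mice of each of the 437 CpG sites, by gene, split into sites within 1 kb of the gene start (of either gene end for Fli1, Ets1 and Etv4) and the rest of the region. Of the 163 sites near starts 162 lie under 20%, while the other 274 spread over the whole range.

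Fli1, the closest relative of Erg in the set, had 68 sites, of which 58 were under 20%. Its mean away from the gene ends was 15.8%, against 67.2% in Erg, and most of these Fli1 sites lay in 1 low stretch near the upper end of the gene. The Fli1 clusters farther inside, between positions 32515169 and 32516982, had means from 66.4% to 93.3%. The lower Fli1 mean therefore does not describe the inside of the gene. Ets1, a factor that responds to growth factor signals, averaged 45.3% over its 23 sites away from the ends, and its paralogue Ets2 averaged 81.3% over 16 sites. In the PEA3 group the corresponding means were 50.2% for Etv1 (33 sites), 22.1% for Etv4 (14 sites) and 36.5% for Etv5 (30 sites). Etv6, a repressor needed for blood stem cells, averaged 70.2% over 36 sites and 0.79% over 57 sites at its start. Elf1, known from blood cells, averaged 13.9% over 25 sites. Most of these Elf1 sites lay within 1498 bases of the start or past the end of the gene. The clusters between them had means of 12.7% at position 79486742, and 95.8% and 97.9% from position 79509346 to 79509513. Gabpa had 4 sites in all, 2 at its start with a mean of 4.31% and 2 farther on with a mean of 93.9%, so its region was barely sampled.

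Differences between housing groups were tested with limma on 350663 CpG sites whose values ranged over at least 5 points, with Benjamini-Hochberg adjustment across all of them. In these data no site in the genome passed an adjusted p of 0.05 in any of the 3 comparisons (0% called in each). Of the 437 member sites 305 could be tested, and 132 could not because they varied too little. Of those, 104 member sites were at 0% in every mouse with a value. For enriched against standard, 0 of the 258 tested sites of the 9 genes other than Erg passed the adjusted threshold, and 10 (3.88%, 5 higher and 5 lower) had an unadjusted p under 0.05, against 4.67% of all sites tested. For withdrawal against standard 0 of 258 passed and 7 (2 higher, 5 lower) had an unadjusted p under 0.05, a share of 2.71% against 4.3%. For withdrawal against enriched 0 of the 300 sites outside the Erg window passed and 8 (6 higher, 2 lower) had an unadjusted p under 0.05, a share of 2.67% against 4.18%. These 3 shares are below those of all sites. The first 2 leave Erg out; with the Erg sites outside its window, which the choice of genes may have used, the counts were 15 of 300 (5.0%) for enriched against standard, a share above that of all sites, and 8 of 300 (2.67%) for withdrawal against standard. The comparisons with standard share the standard mice, and all 3 come from the same 15 mice.

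The member site with the smallest p outside Erg was in Etv5, a PEA3 factor, at position 22430461 on the plus strand, 9109 bases from its annotated start. Standard mice had 26.7%, 17.9%, 25.5%, 10.5% and 28.6%, all enriched mice had 0%, and withdrawal mice had 13.9%, 5.88%, 0%, 0% and 32.0%. Standard and enriched did not overlap, while withdrawal mice covered both. The difference between enriched and standard was -21.8 points (limma log2 ratio -2.71 ± 0.65 SE, unadjusted p = 0.000496, adjusted p = 0.748). When only the 10 mice of those groups entered the limma fit, the adjusted p was 0.0274 (range over all alternatives 0.0274 to 0.872), which passed the threshold. The 8 other measured sites of the same Etv5 stretch did not share the pattern. Their standard means ran from 0% to 13.8% and their enriched means from 1.77% to 29.4%. At the Etv5 site at position 22430784 the order was the opposite, at 0% in the 4 standard mice with a value and at 63.6%, 3.03%, 0% and 45.5% in 4 enriched mice (limma, adjusted p = 0.892). Without enriched 2 that difference went from 28.0 to 16.2 points. A window over the 4 sites of this stretch that all mice had (chr16:22430001-22431000) stood at 10.4% ± 7.13 for standard, 8.05% ± 7.84 for enriched and 5.61% ± 3.42 for withdrawal mice (SD, n = 5 each).

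A site in Ets1 at position 32710277 on the minus strand was the other one whose standard and enriched mice did not overlap. Standard mice had 64.0%, 72.5%, 78.7%, 60.9% and 81.1%, and enriched mice 87.5%, 82.8%, 100%, 100% and 90.9%. Withdrawal mice at this Ets1 site ranged from 36.7% in withdrawal 3 to 100% in 2 mice. These 2 sites were all of the 258 whose standard and enriched mice did not overlap, and across the genome 1.22% of sites tested had such a pattern. In withdrawal against standard and in withdrawal against enriched it was 0 of the 300 member sites outside the Erg window, against 1.11% of all sites in each. The Ets1 site belongs to a window of 3 sites (chr9:32710001-32711000) at 80.7% ± 4.17 for standard, 93.7% ± 5.95 for enriched and 78.1% ± 27.0 for withdrawal mice (SD, n = 5 each). In this Ets1 window withdrawal 3 stood at 35.2% and withdrawal 2 at 68.3%, with the other 3 mice between 90.7% and 100%. Its difference for enriched against standard was 13.0 points (limma unadjusted p = 0.0667, adjusted p = 0.868). For withdrawal against enriched it was -15.5 points (unadjusted p = 0.155, adjusted p = 0.999), and it was smaller by more than 1.5 times both without withdrawal 3, at -4.79 points, and with sites missing in some mice added, at -6.73 points.

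**Figure D4:**
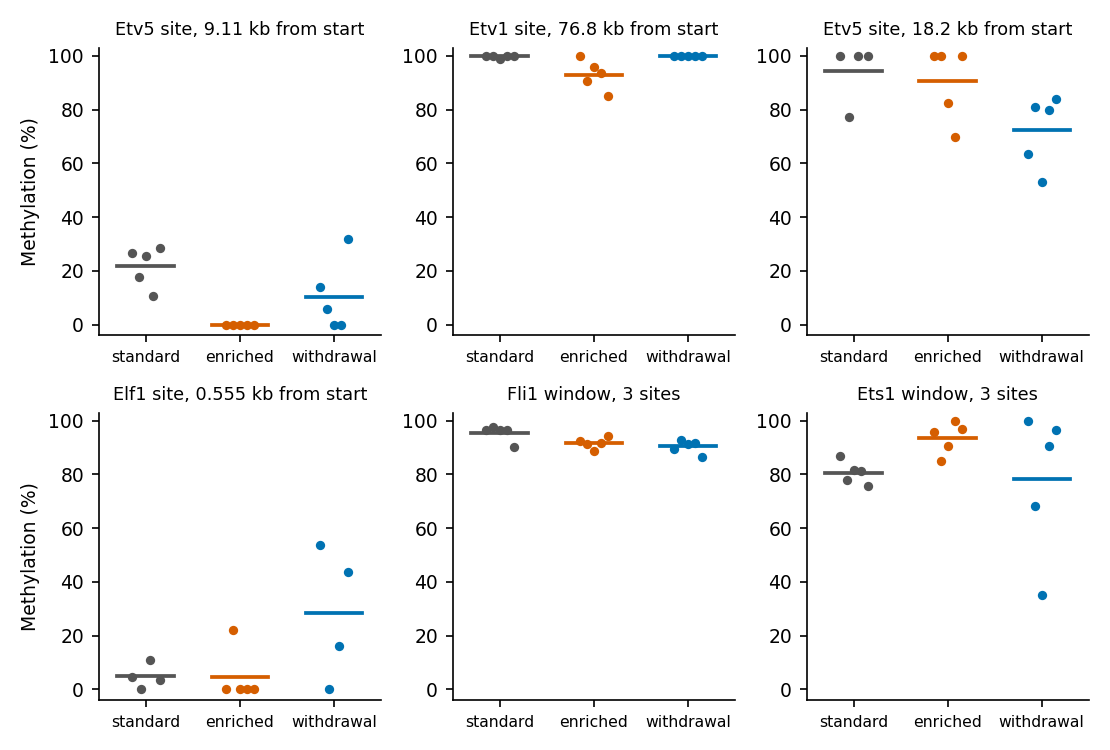
Methylation (%) by mouse (dots) and group mean (lines) for 4 CpG sites of Etv5, Etv1 and Elf1 and for the 1 kb windows of Fli1 and Ets1. The Etv5 site 9109 bases from the start is at 0% in all 5 enriched mice, and the Ets1 window of withdrawal 3 is at 35.2%.

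In Fli1 the window with the smallest p (chr9:32515001-32516000, 3 sites) was highly methylated in every mouse. Standard mice had 96.4%, 97.5%, 96.5%, 96.5% and 90.1%, enriched mice 92.6%, 91.2%, 88.6%, 91.8% and 94.5%, and withdrawal mice 89.4%, 92.8%, 91.4%, 91.9% and 86.6%. In 4 of 5 standard mice the value was above that of every enriched and withdrawal mouse, and standard 5 lay among them. The Fli1 difference was -3.68 points for enriched against standard (limma unadjusted p = 0.0417, adjusted p = 0.867) and -5.01 points for withdrawal against standard (unadjusted p = 0.0118, adjusted p = 0.995). The Fli1 window was the only one of the 13 tested windows of the 9 genes with an unadjusted p under 0.05 in either comparison, which is 7.69% of them, against 5.71% and 4.8% of all 15677 windows. None of the 13 windows passed the adjusted threshold, as no window did in the genome (0% called). For withdrawal against enriched 0 of 15 windows had an unadjusted p under 0.05, against 4.39%. When sites missing in some mice were added to the Fli1 window, the differences were -0.84 and -2.31 points. The direction in Fli1, lower than in standard housing, was the opposite of that in the Erg window. At the single Fli1 site named for withdrawal against standard, position 32516929, 3 standard mice had 100%, 68.0% and 0% and all 4 withdrawal mice with a value had 100% (limma, adjusted p = 0.911). Without standard 5 the difference at this Fli1 site was 16.0 points, against 44.0 points with it.

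**Figure D5:**
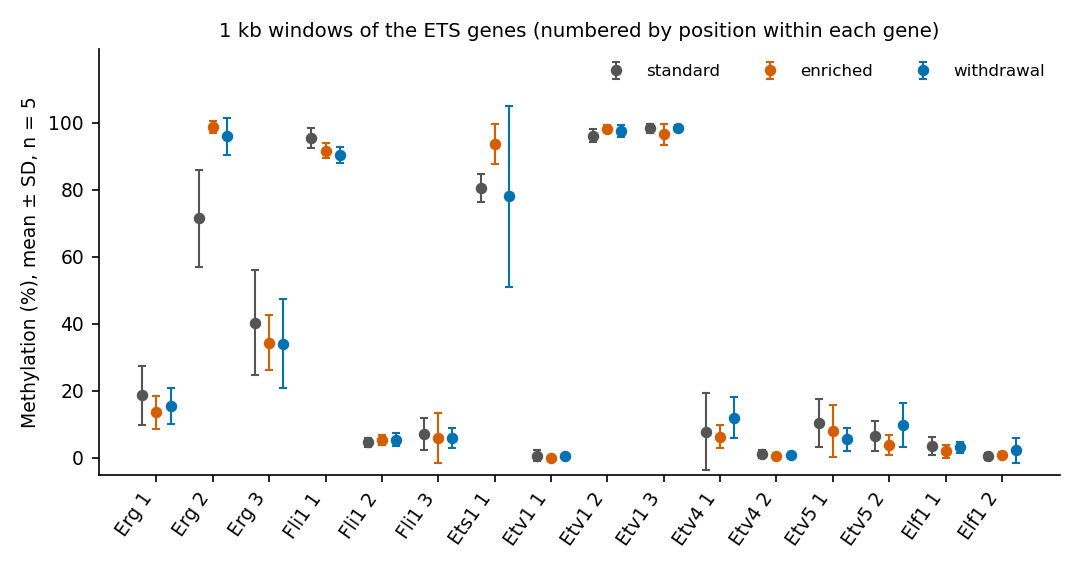
Mean methylation (%) ± SD over 5 mice per group of the 16 windows of 1 kb with at least 3 sites measured in every mouse, numbered by coordinate within each gene; the Erg window is Erg 2 and the Fli1 window described in the text is Fli1 1. The group means of the windows other than Erg 2 and Ets1 1 lie within 6 points of each other, apart from Erg 3.

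In Etv1 the site at position 38856901 on the minus strand, 76819 bases from the start, was almost fully methylated. Standard mice had 100% in 4 mice and 98.9% in standard 3, all 5 withdrawal mice had 100%, and enriched mice had 100%, 90.6%, 95.7%, 93.6% and 85.2%. The means differed by -6.77 points for enriched against standard (limma, unadjusted p = 0.0133, adjusted p = 0.892) and by 6.99 points for withdrawal against enriched (unadjusted p = 0.00977, adjusted p = 0.922). Enriched 1 had the same value as the other groups. The Etv1 window over that site and 4 others stood at 98.4% ± 1.29, 96.6% ± 3.06 and 98.5% ± 1.02 in standard, enriched and withdrawal mice (SD, n = 5 each). At the start of Etv1 the site at position 38779538 was at 0% in all 5 standard mice and in 4 enriched mice, and at 6.25%, 18.9%, 0%, 8.47% and 0% in withdrawal mice (limma, adjusted p = 0.911 against standard). Without withdrawal 2 that Etv1 difference went from 6.74 to 3.69 points.

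Of the other named sites, the Etv5 site at position 22421363 ran from 52.9% to 83.9% in the 5 withdrawal mice. It had 100% in 3 and 77.3% in 1 of the 4 standard mice with a value, and from 69.7% to 100% in enriched mice. The adjusted limma p was 0.911 against standard and 0.922 against enriched. In Etv6 the site at position 134246344 was at 74.1% in withdrawal and 97.3% in standard mice (adjusted p = 0.911), with withdrawal 3 at 35.7%, and without that mouse the difference went from -23.2 to -13.6 points. The Etv6 site at 134032230, upstream of the gene, was at 100% in the 4 enriched mice with a value and ran from 62.8% to 100% in withdrawal mice (adjusted p = 0.922). In Elf1, 555 bases from the start, the site at 79481729 had 53.8%, 0%, 16.2% and 43.6% in 4 withdrawal mice and 0% in 4 of 5 enriched mice, with enriched 2 at 22.2% (adjusted p = 0.922). Without withdrawal 2 the difference at this Elf1 site went from 24.0 to 15.5 points. It was the most methylated site of the Elf1 start, whose 7 sites averaged 3.34%.

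The remaining windows with the smallest p were in Etv4 and Etv5. The Etv4 window (chr11:101784001-101785000, 3 sites) had 24.9%, 14.5%, 0%, 0% and 0% in standard mice and 13.1%, 8.33%, 3.46%, 17.0% and 18.4% in those of withdrawal (limma, adjusted p = 0.995). The standard mice of this Etv4 window thus covered the whole withdrawal range, and the difference of 4.18 points was not stable. It was 8.43 points without standard 1, 2.21 points without standard 3, standard 4 or standard 5, 6.33 points without withdrawal 3 and 2.60 points without withdrawal 5. With sites missing in some mice added to the Etv4 window it was 1.27 points. The Etv5 window upstream of its start (chr16:22440001-22441000, 7 sites) had a mean of 3.87% ± 2.85 in enriched and 9.72% ± 6.57 in withdrawal mice. Withdrawal 5 stood at 21.0%, and the adjusted limma p was 0.999. The Etv5 difference went from 5.85 to 3.01 points without withdrawal 5 and to 3.87 points with sites missing in some mice added. None of the 3 fits across windows, and none of the 3 across sites, left a named difference of the 9 genes below the adjusted threshold.

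Averages over the sites away from the start that were measured in every mouse could be tested for the 8 genes with at least 3 such sites. In both comparisons with standard 0 of the 7 genes other than Erg, and for withdrawal against enriched 0 of 8, had an adjusted limma p under 0.05, and 0 had an unadjusted p under 0.05. In the genome 0% of the 6580 genes were called, and 6.06%, 5.17% and 4.21% had an unadjusted p under 0.05. Over these complete sites Etv1 (11 sites) stood at 97.2% ± 1.74, 97.1% ± 1.44 and 97.9% ± 0.94 in standard, enriched and withdrawal mice, and Ets1 (4 sites) at 81.4% ± 3.09, 92.7% ± 6.14 and 80.4% ± 21.8. Fli1 (7 sites) had 43.5% ± 0.96, 42.3% ± 1.54 and 41.9% ± 0.12, and Etv6 (6 sites) 37.8% ± 4.36, 40.0% ± 8.51 and 41.2% ± 3.83. With sites missing in some mice added, the order of the Fli1 means was reversed, at 13.8%, 15.4% and 16.9%. Elf1 (6 sites) stood at 18.0% ± 1.34, 17.5% ± 1.06 and 18.0% ± 0.71. Etv4 (3 sites) had 7.87% ± 11.4, 6.38% ± 3.54 and 12.0% ± 6.19, and Etv5 (11 sites) 7.97% ± 4.07, 5.39% ± 2.01 and 8.22% ± 5.36. Of the 11 Etv5 sites, 7 lie upstream of the gene. These levels compare housing groups within a gene and do not rank the genes, because few sites of each gene were complete. The means over all measured sites away from the start, given above, do not rank the genes either. They mix sites deep in a gene with low stretches outside it or just past the 1 kb limit. In Etv1 an upstream stretch that crosses this limit (positions 38778878 to 38779327) had a mean of 1.03%. Clusters inside Etv1 had means from 73.2% to 97.8%. Every SD here is over n = 5 mice.

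The starts of Fli1, Ets1 and Etv4 were not tested because their strand was missing, although Etv4 had 10 sites measured in all mice at its upper end. Of the other members, only the start of Etv1 had enough sites measured in all mice for a test (6 sites). It stood at 0.94% ± 1.16 for standard, 1.78% ± 3.69 for enriched and 0.86% ± 1.20 for withdrawal mice (SD, n = 5 each), and enriched 2 alone, at 8.37%, stood far above the rest. Without that mouse the Etv1 start difference turned from 0.83 to -0.81 points for enriched against standard and from -0.92 to 0.73 points for withdrawal against enriched. With sites missing in some mice added, these differences were 0.17 and 0.42 points. The difference of -0.09 points for withdrawal against standard also changed sign when single mice were left out or sites added, and ran from -0.57 to 0.59 points. The adjusted limma p was 0.969, 0.996 and 0.974 for enriched against standard, withdrawal against standard and withdrawal against enriched. Of the 3075 gene starts tested 0% were called, and 5.14%, 5.01% and 5.07% had an unadjusted p under 0.05.

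Of 16 further ETS genes, 5 starts (Elf4, Elk3, Elk4, Erf and Fev) and 4 gene bodies (Elf2, Ehf, Elk3 and Spic) could be tested, and 0 passed an adjusted limma p of 0.05 in any comparison. For unadjusted p-values under 0.05 the counts were 1 of 5 starts and 1 of 4 bodies in enriched against standard, where 5.14% of all starts and 6.06% of all bodies were at that level. In withdrawal against enriched it was again 1 of 5 starts and 1 of 4 bodies, against 5.07% and 4.21% of all. In withdrawal against standard it was 0 of both, against 5.01% and 5.17%. With 5 starts and 4 bodies a single gene makes a larger share than the background, so no more is read from these counts. The start was that of the X-linked gene Elf4, at 32.2% ± 21.9 for standard, 62.8% ± 13.0 for enriched and 27.8% ± 22.4 for withdrawal mice (SD, n = 5 each). The body was that of Spic, a factor of macrophages, at 92.2% ± 3.97, 96.3% ± 2.19 and 90.8% ± 2.67.

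Windows elsewhere in the genome were ranked by how closely they followed the Erg window over the 15 mice. Among 10312 windows that ranged over at least 10 points, the 3 with the highest correlation (r = 0.82, 0.82 and 0.79) lay on chromosomes 17, 17 and 9 with no gene of the gene table within 5 kb. The 5 genes named next, by windows inside or within 5 kb of a gene, were Tdh (r = 0.78), Zfp951 (r = 0.77), Brsk1 and Tmem150b, which share a window (r = 0.75), and Prpf38a, whose window also touches Orc1 (r = 0.75). These values describe 15 mice in 3 groups, carry no test and were picked from the top of many windows. The Tdh window had means of 81.8%, 88.9% and 87.5% in standard, enriched and withdrawal mice, and the Brsk1 window 83.9%, 98.0% and 98.3%. Among the other 15 ETS windows, whatever their range, the highest correlation with the Erg window was 0.60, in Etv1, and the lowest was -0.57, in Elf1. These Etv1 and Elf1 windows ranged over 6.99 and 6.92 points, less than the ranking above required. Among the ETS windows that ranged over at least 10 points the extremes were 0.29, in Etv4, and -0.53, in Erg.

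The precision of single values was limited by depth, which the deposited percentages do not give. Where both strands of a CpG were measured in a member gene (30 CpGs, 328 pairs of values), the strands differed by more than 20.6 points in 1 of 10 pairs, and 61.9% of pairs were identical. Most of these CpGs were nearly unmethylated, so the identical pairs say little about other sites. At the highly methylated CpGs among them, Etv1 position 38833879 and Fli1 position 32515425, the strands differed by a mean of 30.9 and 21.3 points. Member sites with intermediate means (20% to 80%, 43 sites) had a median within-group SD of 23.5 points, and all such sites in the genome 22.8 points. The number of member sites with a value ran from 267 in standard 1 to 423 in withdrawal 4, and standard 1, the mouse that overlaps the withdrawal group in the Erg window, was the one with the fewest. Its part in the result was not tested beyond leaving it out, which gave a difference of 32.3 points for enriched against standard.

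Starts of cell type marker genes were measured only in part. Of the granule and excitatory neuron markers 3 of 8 had a start value (Prox1, Neurod2 and Dsp), with a mean per mouse from 0.24% to 11.3% for standard, 1.47% to 5.90% for enriched and 0.33% to 3.34% for withdrawal mice. Of the endothelial markers 3 of 10 had one (Kdr, Flt1 and Cldn5), with ranges of 5.29% to 8.99%, 3.56% to 6.21% and 1.91% to 6.95%. Oligodendrocytes were represented by 1 of 8 markers, Olig2, with means of 2.26%, 2.92% and 4.34% in standard, enriched and withdrawal mice. Of the astrocyte markers 3 of 5 had a start value (Aldh1l1, Slc1a3 and Gja1), with a mean over them of 13.5%, 9.43% and 10.4%, and of the microglia markers 0 of 8. Most of these starts had means under 10% in each group. The exceptions were Aldh1l1, at 36.4%, 25.7% and 29.3%, and Neurod2, a neuronal factor, at 15.6% in standard against 8.46% in enriched and 2.28% in withdrawal mice. The part of these differences in the member results was not tested. The markers had too few measured starts to check the labelled tissue from them. Since Erg is best known from vessel cells and the tissue was analysed in bulk, a different share of cells of a type and a different methylation within cells cannot be told apart.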

How the data were processed

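DNA methylation had been measured by RRBS in 15 mice in 3 housing groups of 5, taken from the housing labels. The deposited table gives each cytosine of each strand a percent methylation in every mouse. Per the submitters' processing notes, Trim Galore 0.4.0, cutadapt 1.8.1, Bismark 0.16.1, methylKit 1.5.2 and the build mm10 were used; coverage filters are not given in the sources used here. No coverage was given with the percentages, so depth is unknown and no counting interval was computed. The table runs through the chromosomes in 2 passes, and the first (455836 positions) was taken as CpG sites. All CpG positions inside RefSeq promoters fell on CG in the sequence (100%). Every site had values in at least 3 mice of each group.

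The percentages were tested as log2((percent + 5)/(100 - percent + 5)) with limma 3.58.1 in R 4.3.3 (two-sided, variance trend, all 15 mice, no covariates), adjusted by Benjamini-Hochberg over all sites, 1 kb windows (at least 3 sites measured in all mice), gene starts (within 1 kb) or gene bodies of the genome, with chromosomes Y and M left out. A call is an adjusted p under 0.05. Sites needed a range of at least 5 points, the others none. The code was tested on simulated data. The Erg window was tested for withdrawal against enriched with an exact permutation test (SciPy 1.17.1). Strand was missing for 4408 of 21900 genes, among them Fli1, Ets1 and Etv4. Named were all 10 genes, every site of the Erg window, the 5 sites and 2 windows with the smallest p outside it in each comparison, and the 5 genes most like the Erg window. Ets1 position 32710277, the neighbouring clusters of Erg, its other windows and position 95415575, and the window and neighbours of the named Etv5 site were added after their values were seen. The members, lists and rules were chosen with earlier results of these data known. Mice are taken as separate animals from the labels; p-values measure the spread between them. Alternatives covered the offset, scale, mice fitted, filters, window placement, replicate block and leaving out each mouse. Replicate correlations over sites ran from 0.905 to 0.956, and no 2 mice were duplicates.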

Additional observations from a re-analysis of the deposited data

Results flagged for a closer look

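In 16 of the 105 groups of 4 or 5 mice examined for named sites, windows, gene starts and gene bodies (15.2%), 1 mouse stood far from the others by Dixon's criterion. Chance alone flags about 1 group in 20, and many groups here hold tied values at 0% or 100%, where any single other value is flagged. No explanation was tested.

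In Etv1 the start stood at 8.37% in enriched 2 and at no more than 0.37% in the other enriched mice. The Etv1 window at that start was at 3.49% in standard 2 with the other standard mice at 0%, and at 1.82% in withdrawal 1 with the next at 0.40%. The Etv1 site at position 38856901 was at 98.9% in standard 3 and at 100% in the other standard mice.

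In Etv5 the average away from the start, which includes sites upstream of the gene, stood at 17.5% in withdrawal 5 with the next mouse at 7.16%. The Etv5 window upstream of its start was at 8.83% in enriched 5 with the next at 3.65%. The Etv5 site at position 22421363 was at 77.3% in standard 2 and at 100% in the other standard mice with a value, and the one at 22430784 was at 13.3% in withdrawal 4 and at 0% in the others.

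In Elf1 the window past the end of the gene was at 2.27% in standard 3 with the others at 0%, and at 8.80% in withdrawal 2 with the next at 2.51%. The Elf1 site at position 79481729 was at 22.2% in enriched 2 and at 0% in the other enriched mice. The Fli1 window was at 90.1% in standard 5 with the next standard mouse at 96.4%.

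In Erg the site at position 95415574 was at 6.90% in enriched 2 and at 0% in the other enriched mice, and the one at 95519931 was at 91.1% in enriched 4 and at 100% in the others. In Etv6 the site at position 134246344 was at 89.3% in standard 3 with the other standard mice at 100%, and at 35.7% in withdrawal 3 with the next at 76.2%.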

How the results depend on the processing

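Of 341 recomputed counts, Erg window differences and permutation tests, 340 stayed on their side of the threshold or within the spread. The exception was enriched against standard over sites, where fitting only the 2 groups compared called 1 member site, the Etv5 site at position 22430461 (limma, adjusted p = 0.0274). Named sites and windows kept their direction under every alternative. Counts at an unadjusted p under 0.05 were less stable. For enriched against standard 10 sites of the 9 genes became 5 with sites measured in all mice only and 17 without standard 3. For withdrawal against standard 7 sites became 1 with sites measured in all mice only, 3 with only the 2 groups, 3 without withdrawal 4, 4 without enriched 4 and 17 without standard 2. For withdrawal against enriched 8 sites became 4 with sites measured in all mice only, 5 inside the genes only, 13 without enriched 4, 13 without withdrawal 4 and 15 without enriched 3. The windows ran from 0 to 2, and gene bodies and the start from 0 to 1. The group differences in the averages over Fli1, Etv1 and Etv5 moved by more than the spread within groups when sites missing in some mice were added or the flanks left out. In Fli1 the added sites reversed the order of the groups, to means of 13.8%, 15.4% and 16.9% in standard, enriched and withdrawal mice. Among them, the 4 sites from 32516920 to 32516982 stood at 48.7%, 57.2% and 86.6% in 3 standard, 3 enriched and 4 withdrawal mice, with standard 5 at 0%. The 26 sites from 32541151 to 32541408 had the other order, at 2.61%, 0.82% and 0.71%. The cause was not tested. Adding those sites for starts and bodies, and Erg without its window, were chosen after seeing the data.

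Replicate numbers did not pair the mice: same-numbered mice had correlations of their deviations between -0.018 and 0.019, and 3 of 15 pairs were the highest for their number. With the replicate number as a block, no member was called, the permutation p of the Erg window for withdrawal against enriched was 0.375, and the counts of sites at an unadjusted p under 0.05 were 9, 4 and 9. Depth is unknown, so which single values rest on few reads could not be seen.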
